A study of Rattus norvegicus with 2 samples.

Results

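Ccn1, Ccn2, Ankrd1, Srf, Rhob, Thbs1, Vcl, Tagln, Acta2 and Amotl2, a set of target genes of the actin-linked transcription regulators SRF and YAP, were compared between rat intestinal cells exposed to sodium trisulfide (Na2S3) and cells given water. They were selected by gene name from the array annotation, where Ccn1 carries its older name Cyr61 and Ccn2 its older name Ctgf. All 10 had a probe on the array (11 probes, 39 spot pairs), and 9 of them were among the 13062 genes measured on both arrays. Ccn1, Ccn2, Rhob and Srf were higher in the Na2S3 array by 2.73-, 1.96-, 1.91- and 1.49-fold. Amotl2, Tagln, Vcl and Acta2 lay between a log2 ratio of -0.27 and -0.04, Ankrd1 at 0.30, and the Thbs1 probe did not clear background on the Na2S3 or the water array.

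IEC6 is an established crypt-like line grown from normal rat gut epithelium, and Na2S3 is an inorganic polysulfide that delivers sulfane sulfur to thiols. The groups were IEC6 cells with 100 µM Na2S3 for 60 min and IEC6 cells with water for 60 min, each read by 1 single-colour array, after growth in serum-containing DMEM. The treatment protocol places the Na2S3 exposure in low-serum DMEM. It also gives the dose in mM where the treatment label and design text give µM, so the dose is quoted from the label. There are no replicates: every difference below describes these arrays, spreads are those of repeat spots within an array, and no p-value is given. With bulk RNA, fewer cells of a type and less RNA per cell cannot be told apart.

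SRF is a transcription factor that binds the CArG box and works with either of 2 cofactor families. MRTF proteins bind monomeric actin and enter the nucleus when actin polymerises, which drives cytoskeletal genes such as Vcl, Tagln and Acta2, and ternary complex factors respond to ERK and drive early genes. YAP and its paralog TAZ are the effectors of the Hippo pathway. They leave the cytoplasm when Hippo kinases are off and actin tension is high, and they activate genes such as Ccn1, Ccn2, Ankrd1 and Amotl2 through TEAD factors, which bind DNA at a core of GGAATG.

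Promoter sequence was taken from RefSeq on GRCr8, as 250 bases before and 50 bases after the annotated start, and 8 of the 10 genes were matched (Ankrd1 and Tagln were not). The promoters below are shown because Ccn1, Ccn2, Srf and Rhob had the highest ratios of the set, and Amotl2 because it is a YAP target whose ratio lay near 0. Capitals mark the CArG box, or the TEAD core GGAATG on either strand (CATTCC where it is read on the opposite strand).

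Ccn2 promoter, chr1:22624565-22624864, minus strand: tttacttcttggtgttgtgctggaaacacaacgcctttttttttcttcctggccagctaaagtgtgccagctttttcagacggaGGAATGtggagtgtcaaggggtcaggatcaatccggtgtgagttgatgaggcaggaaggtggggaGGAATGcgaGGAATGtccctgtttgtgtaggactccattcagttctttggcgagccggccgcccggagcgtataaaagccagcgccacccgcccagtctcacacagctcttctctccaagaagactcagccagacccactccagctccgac

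Ccn1 promoter, chr2:237225640-237225939, minus strand: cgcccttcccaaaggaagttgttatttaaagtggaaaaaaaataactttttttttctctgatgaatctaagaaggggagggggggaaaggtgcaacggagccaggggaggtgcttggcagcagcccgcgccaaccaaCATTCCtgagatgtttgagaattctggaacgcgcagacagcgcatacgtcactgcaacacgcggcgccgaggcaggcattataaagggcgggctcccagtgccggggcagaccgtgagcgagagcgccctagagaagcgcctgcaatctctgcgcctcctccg

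Srf promoter, chr9:21923826-21924125, plus strand: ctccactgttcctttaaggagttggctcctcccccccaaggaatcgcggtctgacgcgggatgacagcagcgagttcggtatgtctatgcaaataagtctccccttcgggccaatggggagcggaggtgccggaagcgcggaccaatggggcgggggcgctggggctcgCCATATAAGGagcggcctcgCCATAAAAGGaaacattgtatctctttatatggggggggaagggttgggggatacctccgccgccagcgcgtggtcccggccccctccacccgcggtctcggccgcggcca

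Rhob promoter, chr6:37085155-37085454, minus strand: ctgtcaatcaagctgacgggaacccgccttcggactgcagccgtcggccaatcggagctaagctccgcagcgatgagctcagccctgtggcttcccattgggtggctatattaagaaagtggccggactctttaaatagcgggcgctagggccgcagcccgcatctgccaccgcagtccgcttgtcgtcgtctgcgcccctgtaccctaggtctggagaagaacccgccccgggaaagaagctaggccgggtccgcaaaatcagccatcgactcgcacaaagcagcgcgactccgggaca

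Amotl2 promoter, chr8:112182376-112182675, plus strand: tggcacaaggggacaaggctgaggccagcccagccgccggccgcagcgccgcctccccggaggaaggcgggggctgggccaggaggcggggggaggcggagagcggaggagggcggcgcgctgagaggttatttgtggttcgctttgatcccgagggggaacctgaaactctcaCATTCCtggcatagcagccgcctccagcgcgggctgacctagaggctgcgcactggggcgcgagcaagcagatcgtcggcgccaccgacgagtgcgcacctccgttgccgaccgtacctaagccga

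The Ccn2 window held the TEAD core 3 times, beginning at -166, -101 and -92 from the gene start, all on the gene's strand. Of 27457 promoter windows of this length, 13.9% held that core at least once and 0.106% held it 3 or more times. Ccn1 held it once at -113 and Amotl2 once at -76, both on the opposite strand, and Thbs1, Vcl and Acta2 held it once each, so that 6 of the 8 windows had a match. The Srf window held 2 CArG boxes, CCATATAAGG at -81 and CCATAAAAGG at -61, where 1.64% of all windows held at least 1 and 0.0255% held 2 or more. The CArG search took only the exact form CC, 6 bases of A or T, then GG, and of the 8 windows only that of Srf (1 of 8) held it. Forms with a mismatch were not searched, so a window without a match may still hold such a form. Rhob held neither motif in this window. No CArG box overlapped a TEAD core in these promoters, and a match is a description of the letters only.

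**Figure D1:**
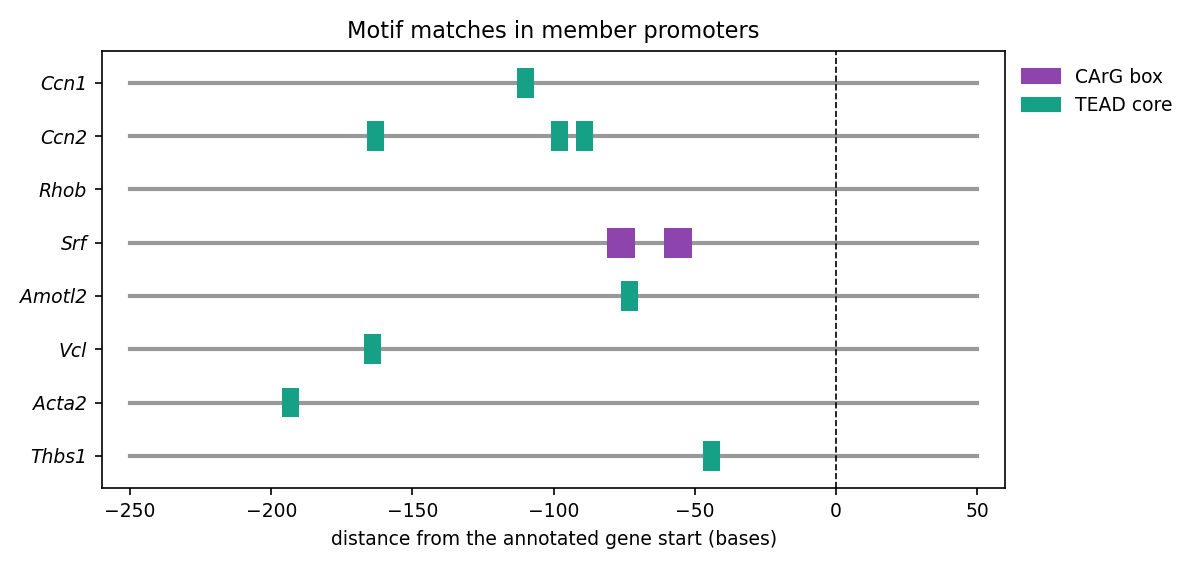
Matches to the CArG box (purple) and the TEAD core (green) in the promoter windows of 8 member genes, with the horizontal axis in bases from the annotated start. Ccn2 has 3 TEAD cores, Srf has 2 CArG boxes and Rhob has none of either.

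Ccn1 and Ccn2 are secreted matricellular genes, and each was read by a probe spotted 10 times, as was Amotl2. Signals are given here as the array's processed signal divided by its 75th percentile over non-control probes, a scaled signal that has no unit, and ratios are Na2S3 over water. Ccn1 encodes an integrin-binding matrix protein that acts on adhesion and migration. Its lowest, median and highest scaled spot signals were 4.27, 4.69 and 5.08 in the Na2S3 array, against 1.55, 1.68 and 1.97 in the water array. Every Na2S3 spot was above every water spot, as for 6.38% of the 799 probes with 10 spot pairs. The log2 ratio was 1.45 (SD 0.15 over 10 spot pairs), and single spot pairs ran from 1.15 to 1.63. Ccn1 stood at rank 53 from the highest among the 13062 genes. Per the files, which use rn4 and name no exon or UTR, the probe lies on chromosome 2 at 243824364 to 243824423.

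Ccn2, connective tissue growth factor, encodes a matrix protein of the same family that is widely used as a readout of YAP activity. Its scaled spot signals had a lowest value of 44.5, a median of 45.3 and a highest value of 55.2 in the Na2S3 array, against 22.8, 23.6 and 26.3 in the water array. Again the spots of the arrays did not overlap. The log2 ratio was 0.97 (SD 0.07 over 10 spot pairs, range 0.89 to 1.09), or 1.96-fold, just under 2-fold, and the gene stood at rank 133. It was just above 2-fold after loess (1.08), after quantile normalization (1.07), in the deposited table (1.07) and with no scaling between arrays (1.18). The probe lies on chromosome 1 at 21327574 to 21327633.

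Thbs1, which encodes the matrix glycoprotein thrombospondin 1 and is a target of both regulators, had 1 probe, read by 1 spot. On neither array was it well above background, with scaled signals of 0.014 in the Na2S3 array and 0.012 in the water array, so no fold is given. The files list it as unmapped on rn4. Among relatives of these secreted proteins, Ccn4 had 0.15, Thbs3 0.09 and Thbs2 0.01 on the log2 ratio scale, and Ccn3, Ccn5, Ccn6 and Thbs4 were not well above background on either array.

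**Figure D2:**
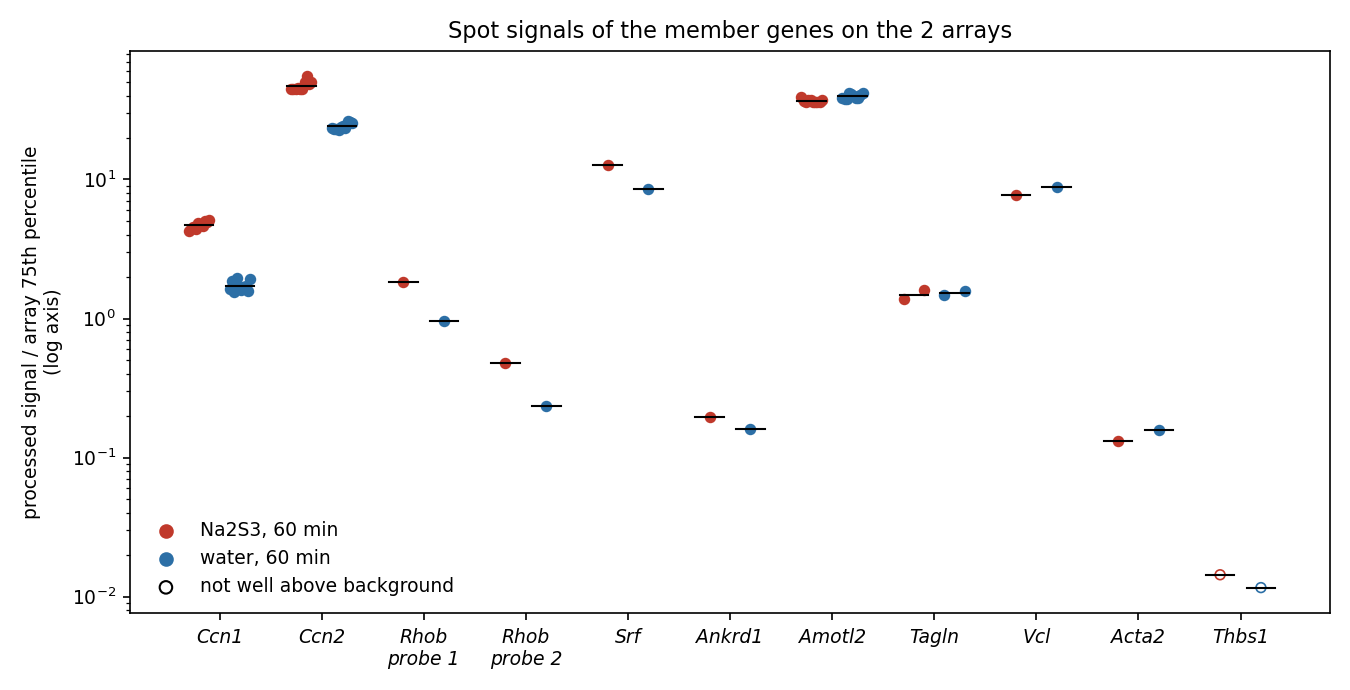
Scaled signal (log axis) of each spot of the 11 member probes, Na2S3 to the left in red and water to the right in blue, with a black line at the probe's mean. The 10 spots of Ccn1 and of Ccn2 separate by array, and those of Amotl2 overlap only at the highest Na2S3 spot. The open Thbs1 symbols are not well above background. Heights of different probes are not comparable.

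Srf, the gene of the transcription factor itself, is among its own targets. Its single spot had a scaled signal of 12.7 in the Na2S3 array and 8.50 in the water array, a log2 ratio of 0.57 and rank 408. Repeat spots of other probes at this signal had an SD of 0.09 in their log2 ratio, so the difference exceeded the spot error. The value lies next to 1.5-fold, at 1.49-fold, and was above it after loess (0.63), after quantile normalization (0.61), in the deposited table (0.61), with normexp background correction (0.60) and with no scaling (0.78). The Srf probe lies on chromosome 9 at 9797512 to 9797571.

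Ankrd1 encodes a nuclear and sarcomeric ankyrin repeat protein that is a common YAP readout in epithelial cells. It was dim, with a scaled signal of 0.197 in the Na2S3 array and 0.160 in the water array from 1 spot each. The log2 ratio of 0.30 compares with a spot error of 0.19 at this signal, and it was 0.09 with normexp. Its relatives Ankrd2 and Ankrd23 were not well above background on either array.

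Rhob encodes an endosomal small GTPase and is transcribed as an early gene after stress. Its probes lie on chromosome 6 at 32052791 to 32052849 and at 32053928 to 32053987, and both gave a higher value in the Na2S3 array. The brighter probe had scaled signals of 1.84 in the Na2S3 array and 0.966 in the water array, and the dimmer one had 0.481 in the Na2S3 array and 0.234 in the water array. The log2 ratios were 0.93 and 1.04, with spot errors of 0.08 and 0.16, so the probes differed by less than the SD of 0.24 seen between different probes of a gene over 3181 genes. Rhob stood at rank 149.

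Amotl2 encodes an angiomotin-family scaffold that binds actin and holds YAP in the cytoplasm, and it is a YAP target in many cell types. Its lowest, median and highest scaled spot signals were 36.0, 36.3 and 39.1 in the Na2S3 array, against 37.8, 39.3 and 42.0 in the water array. The spots of the arrays overlapped only through the highest Na2S3 spot. The log2 ratio was -0.11 (SD 0.06 over 10 spot pairs), and it was 0.01 after loess and 0.10 with no scaling between arrays, so it carries no settled direction. Ccn1, Ccn2 and Amotl2 were each read by 10 spot pairs, and their ratios of 1.45, 0.97 and -0.11 lay further apart than the spread of their spots.

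Structural genes of the actin cytoskeleton did not share the higher values of Ccn1 and Ccn2. Vcl encodes vinculin, which links actin to focal adhesions and cell junctions. It had a scaled signal of 7.78 in the Na2S3 array and 8.84 in the water array, a log2 ratio of -0.18 against a spot error of 0.10. Tagln encodes the actin-bundling protein transgelin. Its spots read 1.39 and 1.60 in the Na2S3 array and 1.48 and 1.57 in the water array, with a log2 ratio of -0.04. Those spots overlapped. Acta2, smooth muscle alpha-actin, was dim, at 0.132 in the Na2S3 array and 0.159 in the water array, with a log2 ratio of -0.27 against a spot error of 0.19. With no scaling between arrays these ratios were 0.02 for Vcl, 0.17 for Tagln and -0.06 for Acta2, so Vcl and Tagln carry no settled direction. Acta2 stayed below 0 in each way of processing, but it rests on 1 dim spot per array, and -0.06 is smaller than its spot error. The Vcl probe lies on chromosome 15 at 3478800 to 3478859, the Tagln probe on chromosome 8 between 48902736 and 48903116, and the Acta2 probe is listed as unmapped.

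Over the measured members, only Ccn1 (1 of 9) reached 2-fold higher with Na2S3, a limit that 0.942% of all measured genes passed. None (0 of 9) reached 2-fold lower, against 0.620% of all genes. At least 1.5-fold higher were 3 of 9, namely Ccn1, Ccn2 and Rhob, against 2.96% of all genes, and 0 of 9 were at least 1.5-fold lower, against 3.41%. The median log2 ratio of the 9 was 0.30, where that of all genes was -0.04. The members' median is the value of Ankrd1, a dim single-spot probe, and it was 0.09 with normexp and 0.50 with no scaling. Among the 3 members spotted 10 times, 1 passed 2-fold upward, against 0.876% of the 799 probes with 10 spot pairs. Ccn1 and Ccn2 had all scaled Na2S3 spots above all water spots, as had 6.38% of those probes. The opposite order held for 24.8% of them, and for none of the members (0 of 3). Amotl2 came close to it: only its Na2S3 spot at 39.1 lay above its lowest water spot, at 37.8. That order depends on the scaling, since its log2 ratio of -0.11 became 0.01 after loess and 0.10 with no scaling. The members were thus not a uniform group: the secreted CCN genes, Rhob and Srf lay high, and the cytoskeletal genes and Amotl2 lay near the bulk.

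**Figure D3:**
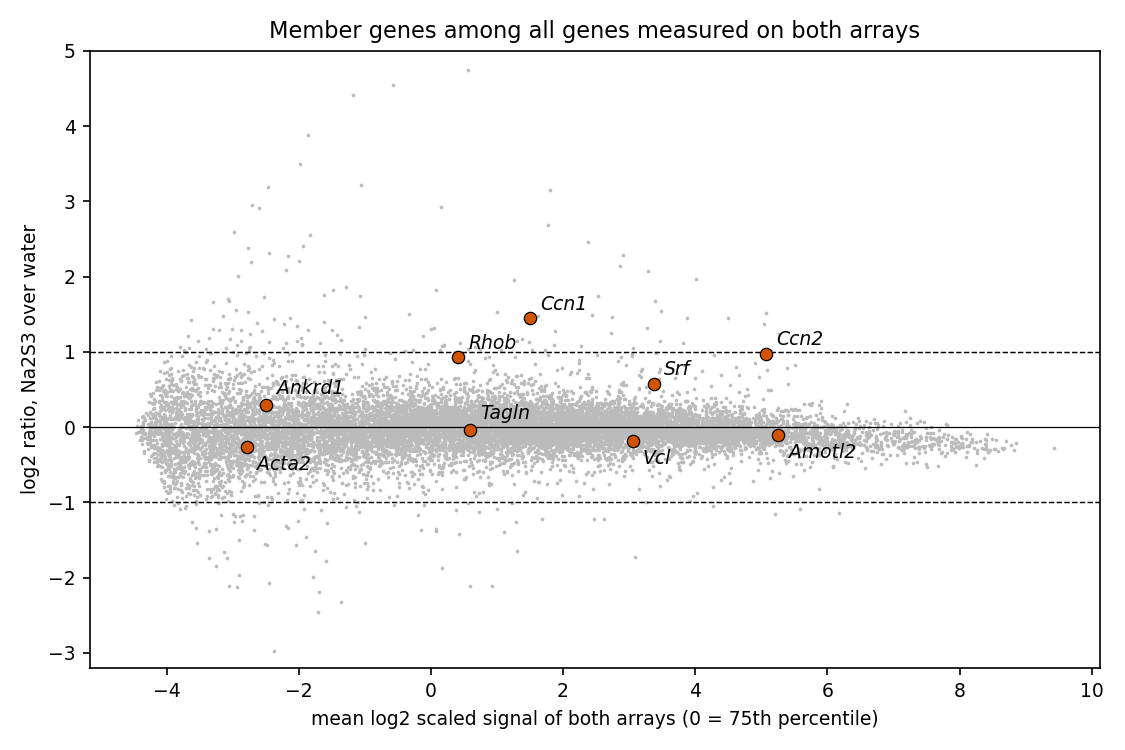
Log2 ratio of Na2S3 over water against the mean log2 scaled signal for 13062 genes (grey), with the 9 measured members in orange and dashed lines at 2-fold. Ccn1 lies above the upper line, Ccn2 and Rhob lie just under it, and Tagln, Vcl, Acta2 and Amotl2 lie near 0.

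The wider set of MRTF-SRF targets holds actin-binding and contractile genes. Of 28 genes, 27 had a probe and 20 were measured, with a median log2 ratio of 0.05. None (0 of 20) passed 1.5-fold in either direction, a count near the shares of all genes that did (2.96% higher, 3.41% lower). The largest ratios were those of Zyx, a focal adhesion gene (0.56), Cnn2, a calponin gene (0.53), Fhl2, a LIM-domain cofactor gene (0.52), and Tuft1 (0.35). Zyx stood at a scaled 9.36 in the Na2S3 array and 6.36 in the water array and passed 1.5-fold with normexp (0.66), after loess (0.60), after quantile normalization and in the deposited table (both 0.59) and with no scaling (0.76). Fhl2 was dim, with a spot error of 0.34, and its ratio was 0.11 with normexp but past 1.5-fold after quantile normalization, after loess and in the deposited table (0.61 in each) and with no scaling (0.73). Cnn2 passed it with no scaling (0.73). Myl9, the regulatory myosin light chain gene, cleared background in the Na2S3 array (scaled 0.052, 1 spot) and not in the water array (0.042). Repeat spots at signals this low had an SD of 0.40 in their log2 ratio, so no fold is given.

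F3, which encodes tissue factor, the trigger of coagulation, had the highest ratio in the further YAP-TEAD list and exceeded all 9 measured members. Its probe was spotted 10 times. The lowest, median and highest scaled spot signals were 12.6, 15.6 and 16.3 in the Na2S3 array, against 2.83, 3.51 and 3.84 in the water array. All Na2S3 spots lay above all water spots, as for 6.38% of the 799 probes with 10 spot pairs. The log2 ratio was 2.14 (SD 0.07 over 10 spot pairs), or 4.40-fold, and the gene stood at rank 23. Of the 21 genes on that list, 16 were measured, F3 alone passed 2-fold upward and 0 passed it downward, and the median was 0.08. At least 1.5-fold higher were 2 of 16, F3 and Gadd45a, against 2.96% of all genes. At least 1.5-fold lower was 1 of 16, Tgfb2 at its brightest probe, against 3.41%. Among all measured genes, 0.942% passed 2-fold upward and 0.620% downward. Gadd45a, a stress and growth arrest gene, had 0.64 and Nuak2, a kinase gene, 0.46 (0.12 with normexp). Tgfb2, a growth factor gene, had -0.59 at its brightest probe, while its 4 probes ran from -0.59 to 0.48.

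Genes of the pathway machinery lay close to the bulk of genes. All 16 Hippo pathway and TEAD genes were measured, with 0 past 2-fold either way and a median of 0.01. That count is near the shares of all genes past 2-fold (0.942% higher, 0.620% lower). Yap1 had 0.09 and Wwtr1, the gene of TAZ, 0.11, while Tead1 had 0.24, Tead4 -0.26 and the kinase gene Stk4, a dim probe with a spot error of 0.34, -0.47. Lats1, a Hippo kinase gene, had 0.56 at its brighter probe and -0.28 at the other. Of the SRF cofactors, 4 of 6 were measured and 0 passed 1.5-fold, a count near the shares of all genes (2.96% higher, 3.41% lower). Mrtfa had -0.03, Elk4 0.18, Elk3 0.09 and Elk1 -0.06, and Mrtfb and Myocd were not well above background on either array. With no scaling between arrays, Mrtfa (0.17) and Elk1 (0.14) were positive.

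Early genes that SRF controls with ternary complex factors had higher ratios than the actin-linked list. The shares of all measured genes past 2-fold were 0.942% higher and 0.620% lower. Of 8 measured genes of 9 on this list, 5 passed 2-fold upward and 0 downward, with a median log2 ratio of 1.30. On the log2 scale, except where a fold is named, these were Nr4a1 (3.18, and 1.64 with normexp), Egr2 (1.83 at its brighter probe and 0.73 at the other), Junb (2.83-fold), Ier2 (1.31) and Egr1 (1.28). Ier2, spotted 10 times, ran from 14.6 to 15.9 in the Na2S3 array, against 5.90 to 6.36 in the water array. Fos had 0.38, Mcl1 0.25 and Fosb, a dim probe with a spot error of 0.40, -0.15 (0.06 with no scaling). Whether the early genes and the actin-linked genes differ beyond variation between cultures was not tested, since each group has 1 array.

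**Figure D4:**
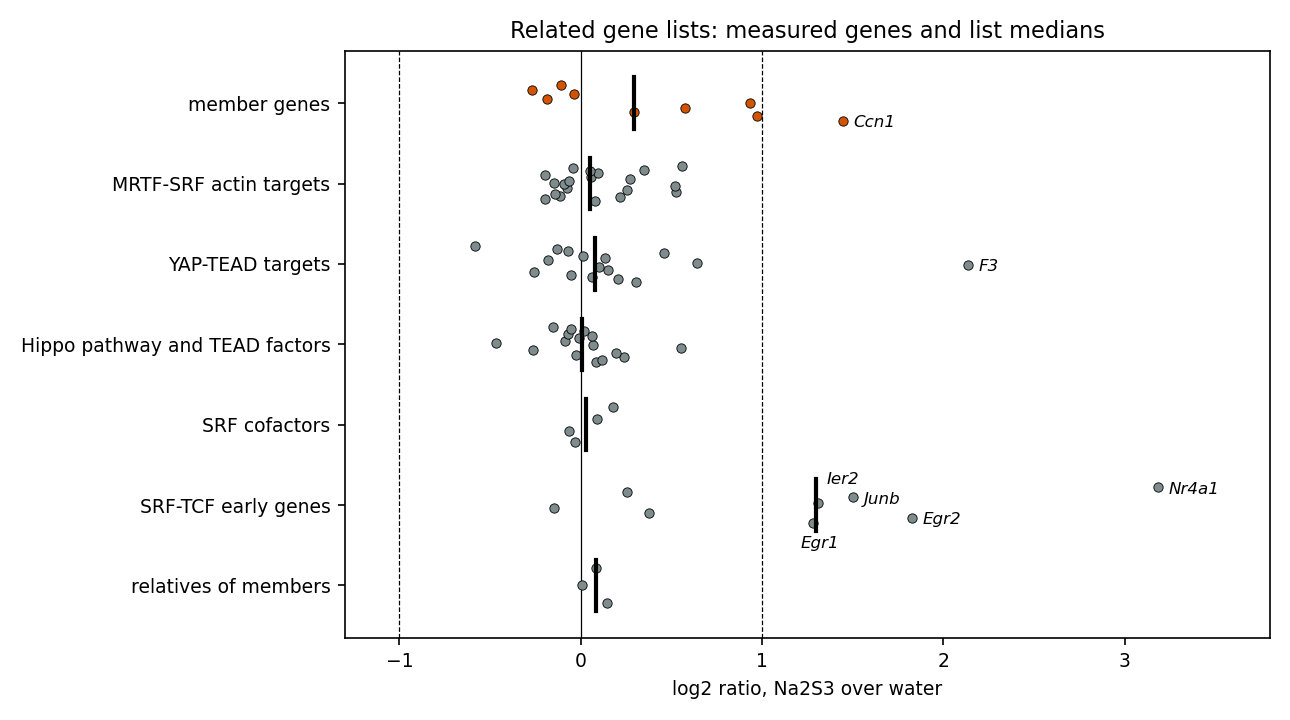
Log2 ratios of Na2S3 over water of the measured genes in the member set (orange) and 6 related lists (grey), with black bars at list medians and dashed lines at 2-fold. The medians of the related lists lie between 0.01 and 0.09, apart from 1.30 for the SRF-TCF early genes, and F3 is the only gene of the YAP-TEAD list past 2-fold.

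Markers were read to check the labelled epithelial cell type. Sums here cover every marker with a probe, measured or not. Signals of different probes are not comparable, so a sum is read between the arrays and not between lists. Of 9 epithelial markers, 6 were measured, while Epcam, Vil1 and Lgr5 were not well above background. Epithelial markers summed to a scaled signal of 77.7 in the Na2S3 array and 80.1 in the water array. Cdh1 had 34.1 in the Na2S3 array and 35.6 in the water array, and Krt8 had 38.3 and 38.4. In the Na2S3 array Cdx1 had 4.29, Krt19 0.526, Krt18 0.332 and Cldn1 0.191. The log2 ratios of the measured ones ran from -0.23 for Cdx1 to 0.44 for Cldn1, which was dim (0.15 with normexp), around a median of -0.03. Fibroblast markers summed to a scaled signal of 483 in the Na2S3 array and 525 in the water array (5 of 7 measured), led by collagen genes, with Pdgfra and Lum not above background. On the log2 scale as reported and after loess, Col1a1 had -0.24 and -0.05, Col1a2 -0.43 and -0.28, and Col3a1 0.03 and 0.23. Of 6 smooth muscle markers, which bear on Acta2 and Tagln, 3 were measured, and Cnn1, Actg2 and Lmod1 were not above background on either array. The summed level of all 6 was 22.2 in the Na2S3 array and 19.2 in the water array. Smtn made up nearly all of it, with 21.8 in the Na2S3 array and 18.9 in the water array. Myh11, smooth muscle myosin, had a log2 ratio of 0.74 (0.19 with normexp, spot error 0.34), the only marker of this list past 1.5-fold, and Smtn had 0.21 and Des -0.06. Endothelial markers summed to 6.72 in the Na2S3 array and 8.16 in the water array (3 of 5 measured), mostly from Vwf and Tek. Immune markers summed to 0.245 in the Na2S3 array and 0.309 in the water array (2 of 3 measured). Pecam1, Kdr and Cd3e were not above background on either array. Both groups were IEC6 cells, and whether cells of other types were present or bore on the members' ratios was not tested.

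**Figure D5:**
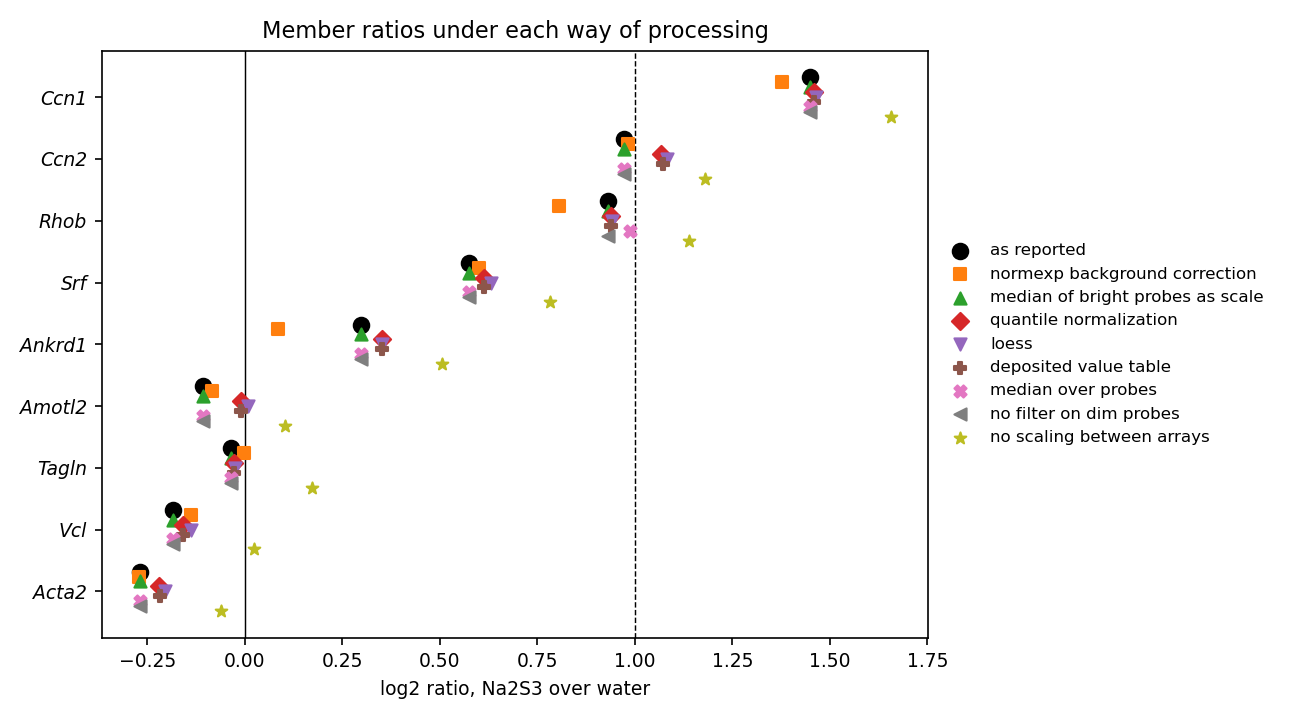
Log2 ratio of Na2S3 over water of each measured member as reported (black) and under 8 other ways of processing (colours), with a dashed line at 2-fold. Ccn1 stays above the line and Srf stays below it throughout, Ccn2 falls on either side, and Rhob crosses it with no scaling between arrays.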

How the data were processed

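Per the labels' protocols, RNA from 1 sample of each group was turned into Cy3-labelled cRNA, and each sample was read on 1 Agilent array. The authors deposited spot intensity values made with Agilent Feature Extraction; the file headers give 10.7.1.1 as its version and the submitters' processing notes give 9.5.1.1. Spatial and multiplicative detrending were on for the processed signal, per the file headers, and no step between arrays is recorded there. The other values taken from the deposited files are flags for outliers and for signal well above background. The deposited value table holds linear intensity as well; both columns have a median of 19.3 and follow their own array (Pearson r 0.99997 over probes on the log2 scale), so scale and direction are known, and its normalization is not stated.

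Outlier spots were left out (390 on the Na2S3 array, 448 on the water array), and 0 were saturated. For each probe the log2 signals of its spots were averaged, and the log2 of the array's 75th percentile (478 for Na2S3, 413 for water) was then subtracted. A probe counted as above background when more than 50% of its spots carried that flag, and a gene took its brightest probe above background on both arrays. Names came from RefSeq accessions for 21098 of 45598 probes and from the file for 14754, and the other 9746 were left out of gene counts. Spot error is the SD of the log2 ratio of repeat spots at similar signal. With 1 array per group no test was possible, and genes were counted at 2-fold and 1.5-fold. The number of arrays limits the precision. Scripts were tested on simulated data. The members and gene lists were chosen with earlier results of these data known. The text names all 10 members, at most 4 genes per list (those with the largest ratios), each list gene past 2-fold, and Yap1, Wwtr1, Mrtfa and Mrtfb. One further list is not reported here. Other genes were named after their values were seen. R 4.3.3 with limma 3.58.1 and Python 3.11.15 were used.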

Additional observations from a re-analysis of the deposited data

How the results depend on the processing

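No paired analysis was possible because each group has 1 array, and no replicate could be left out. Under 7 other ways of processing (normexp, scaling to the median of probes above background, quantile normalization, loess, the deposited table, the median over probes, no filter on dim probes) and 1 added after the data were seen (no scaling between arrays), Ccn1 ranged from 1.38 to 1.66, Ccn2 from 0.97 to 1.18, Rhob from 0.81 to 1.14, Srf from 0.57 to 0.78 and Ankrd1 from 0.09 to 0.50. The count of members at least 2-fold higher was 1 as reported, 2 in the deposited table, after loess and after quantile normalization, and 3 with no scaling, because Ccn2 and then Rhob lie at the limit. No member was at least 1.5-fold lower (0 under all 8). Over all genes, 123 higher and 81 lower became 61 and 31 with normexp, 1062 and 1545 with no filter, and 195 and 47 with no scaling, which moved the median of all genes to 0.17. The members' median was 0.30 as reported, 0.09 with normexp and 0.50 with no scaling. Spot error is larger at low signal (0.40 for Fosb, 0.34 for Fhl2, Nuak2 and Stk4, 0.19 for Ankrd1 and Acta2), and most members rest on 1 spot per array.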

Other observations

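Promoter windows of the related lists held the same motifs at other shares. A CArG box was found in 5 of 24 windows of MRTF-SRF actin targets (20.8%) and 2 of 7 of SRF-TCF early genes (28.6%), against 1.64% of all windows. A TEAD core was found in 3 of 15 windows of the further YAP-TEAD targets and 4 of 12 of the Hippo pathway and TEAD genes (33.3%), but also in 6 of 24 windows of the MRTF-SRF actin targets (25.0%) and 2 of 5 of the members' relatives (40.0%), against 13.9% of all windows.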
